A study of Homo sapiens with 15 samples.

Results

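Histone H3 is one of the core proteins around which nuclear DNA is wound, and its genes fall into a replication-dependent and a replacement class. The 6 genes described here are the H3 genes of the panel, whose symbols start with HIST1H3 or H3F3, plus H2AFX, out of 730 endogenous genes measured. HIST1H3B, HIST1H3G and HIST1H3H make the 3 replication-dependent members, H3F3A and H3F3C the 2 replacement members, and H2AFX encodes the histone variant H2AX. The genes were chosen by symbol but selected on fold changes of these same samples that were already known, so their differences are given as a description, with standard errors and no p-value.

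Cells of the human colorectal cancer line HCT116 were kept untreated (Control) or exposed for 24 h to one of 4 treatments, with 3 samples per group and 15 in all. TQ was thymoquinone at 40 µM, 5-FU was the antimetabolite 5-fluorouracil at 15 µM, Combi was a mixture of 35 µM TQ with 35 µM 5-FU, and SARB was 35 µM of a hybrid molecule in which TQ and 5-FU are joined through an ester. The dose of each single agent thus differed from its dose in Combi, and SARB against Combi was the comparison at matched concentration. RNA was counted on a NanoString nCounter cancer pathway panel, which hybridises a color-coded probe pair to each transcript and counts the codes without amplification. Epithelial genes CDH1, ITGB4 and SFN lay above the negative probes in all 15 samples. Of the 5 fibroblast genes on the panel 4 were above background in 0 samples, while COL1A1 (18 to 78 raw counts) was above it in 13. Of the immune genes, CSF1R and IL2RA were above background in 0 samples, and IL7R was above it in 6 samples with at most 32 counts.

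Endogenous totals ran from 135017 to 607782 counts per sample and the negative probes averaged 3.12 to 16.4 counts. A scaled count is the raw count multiplied by 1 factor per sample, so that the 40 housekeeping genes had an equal geometric mean everywhere. Calls come from edgeR's quasi-likelihood fit and need a fold change of at least 1.5 with a p, adjusted by Benjamini-Hochberg over the 730 genes, of no more than 0.05. On this scale the median over all 730 genes shifted from control by -0.47 (TQ), -0.27 (5-FU), -0.10 (Combi) and -0.41 (SARB) in log2 units, and TMM normalization, which centers the bulk of genes, brought it to between -0.07 and -0.02. All 4 comparisons with control share the same 3 control samples. Control replicate 1 ran on the first cartridge with all TQ, 5-FU and SARB samples, control replicates 2 and 3 ran on the second with Combi replicate 1, and the third held Combi replicates 2 and 3. Since this is bulk RNA, fewer cells that make a transcript and less of it per cell cannot be told apart.

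Replication-dependent H3 genes are switched on as cells copy their DNA, when new nucleosomes have to be filled, and their messages end in a stem-loop instead of a poly(A) tail. All HIST1H3 genes encode the same protein, H3.1, from clustered short genes without introns. Replacement H3 is made throughout the cell cycle from polyadenylated messages and is placed into chromatin outside replication. H2AX sits in nucleosomes genome-wide and is phosphorylated around DNA double-strand breaks, and its gene gives both stem-loop and polyadenylated messages. TQ is a quinone from black cumin seed. 5-FU blocks thymidylate synthase and enters RNA and DNA as a false base.

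The 150 bases upstream of the annotated start are printed for the 3 replication-dependent genes and H2AFX, which have 1 annotated start each. Sequences and positions are from RefSeq, build GRCh38.p14, 5′ to 3′ on the strand of the gene. Capitals mark CCAAT, the letters bound by the factor NF-Y, and a TATA box spelled as TATAAA. A match of the former on the opposite strand reads ATTGG.
HIST1H3B (H3C2), chr6:26032100-26032249, minus strand: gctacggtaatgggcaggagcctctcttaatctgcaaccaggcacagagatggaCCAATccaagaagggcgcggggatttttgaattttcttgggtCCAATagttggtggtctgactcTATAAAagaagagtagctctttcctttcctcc
HIST1H3G (H3C8), chr6:26271414-26271563, minus strand: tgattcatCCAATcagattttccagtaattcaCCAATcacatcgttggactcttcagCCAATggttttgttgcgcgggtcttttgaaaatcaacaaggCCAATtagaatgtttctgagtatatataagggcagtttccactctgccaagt
HIST1H3H (H3C10), chr6:27809901-27810050, plus strand: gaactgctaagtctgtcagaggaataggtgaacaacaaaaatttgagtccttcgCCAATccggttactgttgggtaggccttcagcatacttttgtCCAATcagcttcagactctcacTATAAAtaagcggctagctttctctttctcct
H2AFX (H2AX), chr11:119095466-119095615, minus strand: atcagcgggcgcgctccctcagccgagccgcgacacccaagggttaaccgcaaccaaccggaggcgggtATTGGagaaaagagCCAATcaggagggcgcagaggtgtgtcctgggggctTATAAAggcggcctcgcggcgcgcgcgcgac

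HIST1H3B and HIST1H3H each held 2 CCAAT matches and 1 TATAAA match in this window, and so did H2AFX. HIST1H3G held 4 CCAAT matches and 0 TATAAA matches. Only the spelling TATAAA was searched, so 0 matches do not mean that its window lacks a TATA box. Both strands were searched, and no match of one motif overlapped one of the other. Of 35116 promoter windows of the same length, 23.5% held CCAAT, 5.97% held it at least 2 times, and 6.71% held TATAAA. H3F3A has 4 annotated starts, whose windows held 0, 1, 0 and 1 CCAAT matches and 0 TATAAA matches. These matches are letters in a window, not measured binding. HIST1H3B (chr6:26031589-26032099), HIST1H3G (chr6:26270918-26271413) and HIST1H3H (chr6:27810051-27810536) lie on chromosome 6, H3F3A (chr1:226061831-226072019) on chromosome 1, H3F3C (current symbol H3-5, chr12:31791185-31792298) on chromosome 12 and H2AFX (chr11:119093874-119095465) on chromosome 11. Replication-dependent H3 genes resemble each other closely, and H3F3C derives from a copy of H3F3B, so the counts of these probes may include other H3 transcripts. The probes' target positions are not given in the sources used here.

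HIST1H3H showed the widest range of the 6 genes. Its raw counts were 18972, 17183 and 10799 in the control samples and 9568, 34930 and 12374 in TQ. They were 2130, 1767 and 1859 in 5-FU, 1843, 4607 and 3708 in Combi, and 2872, 1701 and 2689 in SARB. Every sample given 5-FU, Combi or SARB lay below every control sample, although several of those libraries were deeper than the controls. In scaled counts HIST1H3H was 25646 ± 7337 in control (SD, n = 3), 22021 ± 1234 for TQ, 2512 ± 140 for 5-FU, 2247 ± 169 for Combi and 2129 ± 737 for SARB. The 3 groups with the fluoropyrimidine, alone, mixed or in the hybrid, thus stood at 9.79%, 8.76% and 8.30% of control, and TQ at 85.9%. The log2 fold change against control was -3.35 in 5-FU (95% interval -3.77 to -2.93), -3.51 in Combi (-3.94 to -3.09) and -3.59 in SARB (-4.02 to -3.17). In each of these 3 comparisons it was the lowest of all 730 genes. In TQ the log2 fold change was -0.22 with an interval of -0.60 to 0.16, its samples overlapped with the controls, and the sign turned to 0.21 after TMM normalization. With cartridge as a block it was -0.58, not called, and with 1 sample left out it ran from -0.42 (without control replicate 3) to -0.0029 (without control replicate 1).

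HIST1H3B, which encodes the same H3.1 protein from elsewhere in the cluster, followed in second place. Its scaled counts were 19403, 20056 and 14772 in the control samples and 11171, 9823 and 10254 in TQ. They were 2553, 2521 and 3115 in 5-FU, 2982, 4204 and 3799 in Combi, and 3317, 3593 and 1473 in SARB. All 12 treated samples lay below all controls. The group means were 57.6% of control for TQ, 15.1% for 5-FU, 20.3% for Combi and 15.5% for SARB. The log2 fold change was -2.73 in 5-FU (standard error 0.23), -2.30 in Combi (0.23) and -2.70 in SARB (0.23), rank 2 from the lowest of 730 in each. In TQ it was -0.80 (0.22), or -0.33 relative to the median of all genes, and the gene was not called there after TMM normalization (-0.36) or with cartridge as a block (-0.90).

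The spread of both genes was uneven between groups. HIST1H3H varied by 28.6% of its mean in control (coefficient of variation), with control replicate 3 lowest at 18150 scaled counts, and by 34.6% in SARB, with SARB replicate 3 lowest at 1323. In TQ, 5-FU and Combi it varied by 5.60%, 5.56% and 7.50%. SARB replicate 3 was also the lowest SARB sample for HIST1H3B, H3F3C and H2AFX. Without it the SARB log2 fold change was -3.34 for HIST1H3H and -2.39 for HIST1H3B. Within the first cartridge, where control replicate 1 is the only control, HIST1H3H stood at 67.1% of that control in TQ, 7.66% in 5-FU and 6.49% in SARB, and within the second the single Combi sample stood at 9.49% of the mean of its 2 controls.

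HIST1H3G, the third replication-dependent gene, was barely counted. Its raw counts ran from 10 to 29, and it passed the mean of the negative probes plus 2 SD in 9 of 15 samples and in 0 of the 3 control samples. The scaled means of 17.4 to 26.1 did not order the groups, and the log2 fold changes of -0.39 to 0.22 had standard errors of 0.51 to 0.53. It was not called in any comparison, and a change of the size seen for HIST1H3B was not detectable at this level.

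Of the replacement genes, H3F3A encodes H3.3. Its scaled counts were 5187, 4733 and 5082 in the control samples, and the 12 treated samples lay between 2921 and 3735. The treated and control samples did not overlap, and the treated groups stood close together. Their means were 60.7% of control for TQ, 66.4% for 5-FU, 63.6% for Combi and 65.3% for SARB, with log2 fold changes of -0.72, -0.59, -0.65 and -0.61 (standard error 0.10 each). H3F3A was called lower in all 4 comparisons, and after TMM normalization, with values of -0.27, -0.41, -0.57 and -0.27, in none of them. The 5-FU call lay at the fold threshold and was lost when control replicate 1 (-0.56) or 3 (-0.58), or 5-FU replicate 1 (-0.53) or 2 (-0.56), was left out, and the SARB call was lost without SARB replicate 1 (-0.56).

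H3F3C, which encodes the hominid H3 variant H3.5 known from testis, was counted at 13973 to 14372 scaled counts in control. The TQ samples lay at 11166 to 11590, the 5-FU samples at 12385 to 13023, the Combi samples at 8566 to 10546 and the SARB samples at 8545 to 10326. All treated samples were thus below all controls, by little in 5-FU. The log2 fold changes were -0.31 for TQ, -0.17 for 5-FU, -0.62 for Combi and -0.55 for SARB (standard error 0.10 each), and only Combi passed the fold threshold. That call was lost without Combi replicate 2 (-0.57) or 3 (-0.56), with cartridge as a block (-0.43) and after TMM normalization (-0.53), which also turned the sign in TQ (0.15) and 5-FU (0.03). SARB was called lower without SARB replicate 1 (-0.59) or 2 (-0.60), after background subtraction (-0.66) and with the 20 highest housekeeping genes (-0.60).

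H2AFX was counted at 1060, 1055 and 1086 scaled counts in the control samples. Its values were 566, 385 and 645 for TQ, 465, 559 and 662 for 5-FU, 436, 303 and 373 for Combi and 430, 720 and 304 for SARB. All 12 treated samples were below the controls, which varied by 1.54% (coefficient of variation) while the SARB samples spread over 44.0%. The log2 fold change was -1.02 for TQ, -0.93 for 5-FU, -1.53 for Combi and -1.16 for SARB (standard error 0.23 each), and Combi ranked 8 from the lowest of 730. In each of the 5 groups the library with the most housekeeping counts had the lowest H2AFX, which held in at most 3 groups for any other of the 6 genes; its part in the result was not tested. Leaving out that library moved H2AFX to -0.82 for TQ, -0.81 for 5-FU, -1.40 for Combi and -0.90 for SARB, and all 4 calls remained. The TQ call was lost after TMM normalization (-0.58), and the TQ and 5-FU calls were lost with cartridge as a block, at -1.02 and -0.92 against the single control of that cartridge.

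Counting calls over the 6 genes, 3 were lower for TQ, 4 for 5-FU, 5 for Combi and 4 for SARB, and 0 were higher in any treatment. Over all 730 genes 21.6% were called lower for TQ, 10.1% for 5-FU, 6.58% for Combi and 20% for SARB, and 3.42%, 10.1%, 13.6% and 8.63% were called higher. All treated samples lay below all controls for 4 of the 6 genes in TQ and for 5 in each of 5-FU, Combi and SARB, against 39.5%, 27.8%, 16.7% and 28.9% of all genes. Since the genes were selected on these contrasts, nothing is read from these shares.

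**Figure D1:**
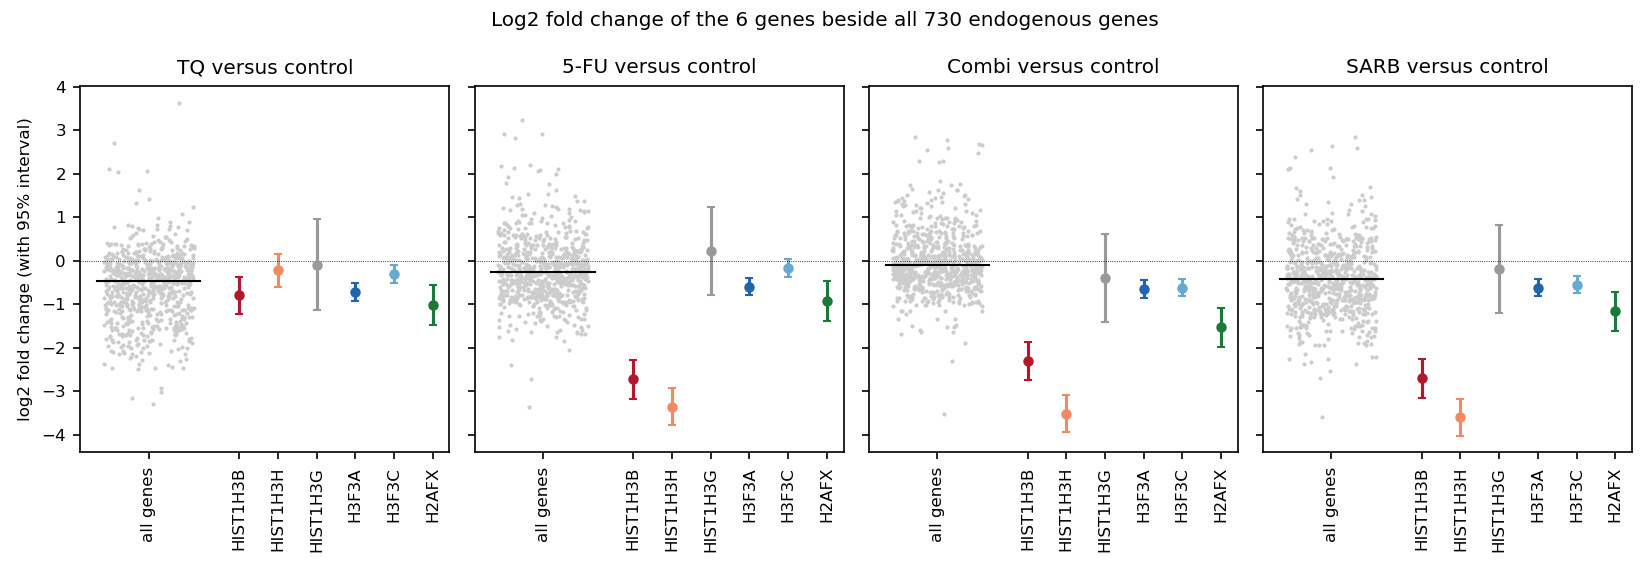
Log2 fold change against control (vertical axis) for all 730 endogenous genes (grey points, the 6 genes included, with their median as a black line) and for each of the 6 genes with its 95% interval, one panel per treatment. HIST1H3H and HIST1H3B lie below all other genes in 5-FU (-3.35 and -2.73), Combi (-3.51 and -2.30) and SARB (-3.59 and -2.70), and within the cloud in TQ (-0.22 and -0.80).

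The balance between the H3 classes can be read within a sample, since a ratio of raw counts needs no scaling between samples. Probes differ in efficiency, so such a ratio is compared between groups and not read as a number of molecules. HIST1H3H over H3F3A was 6.33, 5.49 and 3.57 in the control samples and 8.02, 6.87 and 6.93 in TQ. It was 0.859, 0.736 and 0.692 in 5-FU, 0.698, 0.733 and 0.688 in Combi, and 0.923, 0.656 and 0.401 in SARB. The ratio thus lay above 1 in every control and TQ sample and below 1 in every other sample. The group means were 5.13 ± 1.41 in control, 7.27 ± 0.648 for TQ, 0.762 ± 0.0867 for 5-FU, 0.706 ± 0.0234 for Combi and 0.660 ± 0.261 for SARB (SD, n = 3), and the TQ samples did not overlap with the controls. From geometric means, the ratio was 6.57-fold lower than control in 5-FU, 7.06-fold lower in Combi and 8.00-fold lower in SARB. With H3F3C as the denominator HIST1H3H was 8.86-fold, 7.22-fold and 8.36-fold lower, and TQ (1.93 ± 0.149) overlapped with control (1.81 ± 0.530).

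HIST1H3B over H3F3A gave 3.63 ± 0.673 in control, 3.44 ± 0.352 for TQ, 0.822 ± 0.0290 for 5-FU, 1.15 ± 0.140 for Combi and 0.860 ± 0.361 for SARB. It was 4.36-fold, 3.14-fold and 4.50-fold lower than control in 5-FU, Combi and SARB, less than for HIST1H3H in each. The 6 genes together made up 13.6% to 19.1% of all endogenous counts in control, 14.7% to 14.9% for TQ, 6.59% to 6.84% for 5-FU, 5.77% to 5.90% for Combi and 5.35% to 6.70% for SARB.

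The log2 ratio of the geometric mean of all 3 replication-dependent genes over H3F3A differed from control by 0.38 for TQ, -1.34 for 5-FU, -1.39 for Combi and -1.63 for SARB. HIST1H3G, which lay near background, enters that mean with the same weight as the abundant genes. Without it the differences were -2.42, -2.24 and -2.58 in the last 3 groups. The TQ difference of 0.38 was below the pooled within-group SD of the 3-gene ratio (0.40). For TQ, HIST1H3H alone gave 0.54 and HIST1H3B alone -0.06.

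The proportion of the replication-dependent genes to each other also differed. HIST1H3B over HIST1H3H was 0.591 to 0.814 in control, 0.456 to 0.486 for TQ, 0.982 to 1.21 for 5-FU, 1.42 to 1.73 for Combi and 1.11 to 1.57 for SARB. All TQ samples lay below the controls and all samples of the other treatments above them. The mean was 0.726 ± 0.118 in control, 0.473 ± 0.0153 for TQ, 1.09 ± 0.113 for 5-FU, 1.62 ± 0.172 for Combi and 1.29 ± 0.241 for SARB. Thus HIST1H3H had the larger count of the pair in all control and TQ samples, and HIST1H3B in all Combi and SARB samples. The replacement pair varied less, with H3F3C over H3F3A at 2.84 ± 0.113 in control, 3.77 ± 0.0685 for TQ, 3.83 ± 0.310 for 5-FU, 2.93 ± 0.512 for Combi and 2.98 ± 0.408 for SARB. H2AFX over H3F3A was 0.214 ± 0.00927 in control and 0.118 ± 0.0270 in Combi, with 0.176, 0.169 and 0.147 in TQ, 5-FU and SARB.

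SARB and Combi were the 1 pair of treatments at a matched concentration, where the agents were either joined in 1 molecule or given as a mixture. None of the 6 genes was called between them, while 11.2% of the 730 genes were called lower in SARB and 0.959% higher, and the median of all genes was -0.32. The log2 difference, SARB minus Combi, was -0.08 for HIST1H3H (95% interval -0.47 to 0.31), 0.04 for H3F3A (-0.16 to 0.24) and 0.07 for H3F3C (-0.13 to 0.27). These intervals stay within 1.5-fold, though for HIST1H3H this does not hold with cartridge as a block. For HIST1H3B it was -0.39 (-0.82 to 0.03) and for H2AFX 0.37 (-0.08 to 0.83), and these intervals reach past that fold. HIST1H3G at 0.20 (-0.77 to 1.18) was too low to compare. H2AFX was called higher in SARB after TMM normalization (0.59) and HIST1H3B was called lower without SARB replicate 2 (-0.62). No cartridge held both treatments, so with cartridge as a block the pair is linked only through the controls and Combi replicate 1. That fit gave -0.55 for HIST1H3H (-1.28 to 0.17), -0.26 for HIST1H3B (-1.12 to 0.61), 0.04 for H3F3A (-0.32 to 0.41), -0.12 for H3F3C (-0.43 to 0.19) and 0.14 for H2AFX (-0.82 to 1.10), with none called. TQ and 5-FU alone were given at other concentrations, so no difference between them and the other treatments was fitted.

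The genes whose pattern was most like each member were found by Pearson r of log2 scaled counts over the 15 samples, among 404 genes with a mean raw count of at least 50. The samples share their libraries and scaling and fall into 5 groups, so r mostly reflects the group means and is a description. HIST1H3H was most like CCNB1 (r = 0.980), which encodes cyclin B1 for entry into mitosis, then the DNA glycosylase gene NTHL1 (0.938) and the replicative helicase gene MCM7 (0.931). HIST1H3B was most like TTK (0.973), a kinase of the spindle checkpoint, then NTHL1 (0.959) and ID2 (0.944), an inhibitor of helix-loop-helix factors. HIST1H3B and HIST1H3H had an r of 0.961 with each other. H3F3A was most like KITLG (0.872), HDAC2 (0.867) and SMC3 (0.862), and its r with HIST1H3H was 0.486. H3F3C was most like STMN1 (0.912), which encodes a tubulin-binding protein, BDNF (0.899) and PRKAR2B (0.889), and H2AFX like STMN1 (0.878), XPA (0.856) and HDAC2 (0.832). H3F3C and H2AFX had an r of 0.848. For HIST1H3G, PIK3R3 (0.770), PRKACA (0.663) and CHEK2 (0.653) were highest, at counts near background.

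The rest of the machinery around these genes was read from 4 lists written from general knowledge, without the 6 genes. The lists were chosen with earlier results of these data known, so nothing is read from the shares called in them. DNA replication and S phase genes split in both directions. Of 22 on the panel, 1 was called lower and 1 higher for TQ, 5 and 4 for 5-FU, 5 and 3 for Combi and 6 and 1 for SARB. Their median log2 fold change was -0.26, -0.30, -0.34 and -0.42 in these treatments, beside -0.47, -0.27, -0.10 and -0.41 for all genes. The lower calls were 4.55%, 22.7%, 22.7% and 27.3% of the list, beside 21.6%, 10.1%, 6.58% and 20% of all genes. Higher calls were 4.55%, 18.2%, 13.6% and 4.55%, beside 3.42%, 10.1%, 13.6% and 8.63%. The helicase subunit genes MCM4, MCM5 and MCM7 and the S phase cyclin gene CCNA2 were called lower in 5-FU, Combi and SARB. MCM2, another helicase subunit gene named after its values were seen, was called in no treatment (-0.31, -0.26 and -0.02 in these 3). After TMM normalization MCM4 (-0.41 and -0.37) and MCM7 (-0.54 and -0.57) were not called in 5-FU and SARB, and with cartridge as a block neither MCM4 there (-0.45 and -0.58) nor MCM5 in Combi (-0.60) was. MCM5 was at 385.6 scaled counts in control and its log2 fold change was -1.12 in SARB (standard error 0.15, adjusted p = 8.37e-06, edgeR quasi-likelihood), -0.85 in 5-FU and -0.77 in Combi. In TQ it was at 383 ± 63.6 scaled counts. CCNA2 had -0.86, -0.95 and -0.96 in 5-FU, Combi and SARB. FEN1, the flap endonuclease of lagging strand synthesis, was called lower in SARB (-0.95) and POLE2, a DNA polymerase epsilon subunit, in 5-FU (-0.78). CCNE1, the cyclin of entry into S phase, was called higher in TQ (0.79), 5-FU (0.64) and Combi (0.82), and CCNE2 in 5-FU (0.77). In SARB, CCNE1 (0.49) and CCNE2 (0.51) missed the fold threshold. Both were called higher there after TMM normalization (0.86 each) and with cartridge as a block (0.78 and 0.89). Chosen after their values were seen, the others were PCNA, lower in TQ (-0.70) and higher in Combi (0.72), CDC6, lower in Combi, SKP2, lower in SARB, CDC25A, higher in 5-FU and SARB, POLD4, higher in 5-FU, and POLD1, higher in Combi. Of these, PCNA in TQ (-0.25) and SKP2 in SARB (-0.38) were not called after TMM normalization. With cartridge as a block, PCNA (0.58), CDC6 (-0.45) and POLD1 (0.10) in Combi were not called. Nor were SKP2 in SARB (-0.57) and POLD4 in 5-FU (0.54) in that fit. CDC25A stayed called in both fits. The lowest value in this list was that of MCM5 in SARB, well above the -3.59 of HIST1H3H there.

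Among mitosis genes, CCNB1, CDC25C, TTK and PTTG2 were called lower in 5-FU, Combi and SARB. Of 13 on the panel, 2 were called lower for TQ, 4 for 5-FU, 7 for Combi and 8 for SARB, and the 1 called higher was PKMYT1 in 5-FU (0.69), named after its value was seen. These lower calls were 15.4%, 30.8%, 53.8% and 61.5% of the list, beside 21.6%, 10.1%, 6.58% and 20% of all genes. Their median log2 fold change was -0.37, -0.54, -0.79 and -0.82 in the 4 treatments, beside -0.47, -0.27, -0.10 and -0.41 for all genes. CCNB1 fell from 4141 ± 326 scaled counts in control to 1725 ± 56.5 in 5-FU, 1338 ± 113 in Combi and 1271 ± 106 in SARB. Its log2 fold change was -1.26, -1.63 and -1.71 (adjusted p = 4.27e-09, 6.89e-11 and 3.2e-11, edgeR quasi-likelihood), and -0.17 in TQ (adjusted p = 0.19). TTK was called lower in 5-FU (-0.87), Combi (-0.78) and SARB (-0.97), and so was PTTG2 (-0.78, -0.79 and -0.89), a securin-like gene. CDC25C, a phosphatase that activates the cyclin B kinase, was called lower in all 4 treatments (-0.79, -1.19, -0.96 and -1.18). The cohesin gene RAD21 was called lower in Combi (-0.98) and SARB (-0.82), and the cohesin gene STAG2 in Combi (-0.84). The cohesin gene SMC1A, named after its values were seen, was called lower in Combi (-0.83) and SARB (-0.79). Its Combi call was lost with cartridge as a block (-0.35) and its SARB call after TMM normalization (-0.44). SMC1B, with a mean of 13.0 raw counts, was called lower in TQ (-2.08) and SARB (-1.50) near the level of the negative probes, as was CCNB3 in SARB (-1.27) at 20.5 counts. After TMM normalization the lower calls were 1, 4, 7 and 3 in the 4 treatments. Those lost included CDC25C in TQ, and PTTG2 (-0.55), RAD21 (-0.47), SMC1B and CCNB3 in SARB. With cartridge as a block the lower calls were 2, 4, 5 and 6. STAG2 in Combi (-0.41), SMC1B in TQ and SARB, CCNB3 in SARB and PKMYT1 in 5-FU (0.47) were not called in that fit.

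Genes of the response to double-strand breaks, in which H2AX acts, were called in both directions. Of 25 on the panel, 3 were called lower and 1 higher for TQ, 3 and 2 for 5-FU, 2 and 2 for Combi and 5 and 1 for SARB, with median log2 fold changes of -0.19, -0.33, -0.12 and -0.33. All genes had medians of -0.47, -0.27, -0.10 and -0.41. The lower calls were 12%, 12%, 8% and 20% of the list, beside 21.6%, 10.1%, 6.58% and 20% of all genes. ATM, the kinase that phosphorylates H2AX at breaks, was called higher in Combi (1.16, adjusted p = 0.000321, edgeR quasi-likelihood), where it rose from 58.8 to 130 ± 24.1 scaled counts, and had -0.29, 0.11 and 0.38 in TQ, 5-FU and SARB. The kinase gene PRKDC was called lower in TQ (-0.86), and ATR in 5-FU (-0.79) and SARB (-0.62). RAD52, an annealing factor, was called higher in Combi (0.88), and XRCC4, a factor of end joining, in 5-FU (0.87) and SARB (0.74). Of the Fanconi pathway genes, FANCF was called lower in TQ (-0.98) and SARB (-1.12), UBE2T lower in Combi (-0.92) and SARB (-0.79), and FANCG higher in TQ (0.62) and 5-FU (0.78). The other lower calls, named after their values were seen, were BRIP1 in TQ, FANCC in 5-FU, MDC1 in SARB and CHEK1 in 5-FU, Combi and SARB. Between SARB and Combi, ATM (-0.77, adjusted p = 0.0111) and RAD52 (-1.01, adjusted p = 0.000376) were called lower and XRCC4 higher (0.88, adjusted p = 5.94e-05) by the same edgeR fit. With cartridge as a block these 3 differences were 0.17, 0.05 and 0.34 and none was called, nor were ATM (0.66) and RAD52 (0.41) in Combi against control. That block left 1, 1, 1 and 2 lower calls and 0, 2, 0 and 0 higher calls against control in the 4 treatments. Those lost included ATR in 5-FU (-0.53) and SARB (-0.36), and FANCF in TQ (-0.73) and SARB (-0.86). UBE2T in Combi (-0.58), XRCC4 in SARB (0.57) and FANCG in TQ (0.47) were lost too. After TMM normalization the list had 0, 1, 1 and 1 lower calls and 2, 2, 2 and 3 higher calls in the 4 treatments.

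Genes that modify or escort histone H3 also went both ways. Of 23 on the panel, 4 were called lower and 1 higher for TQ, 4 and 2 for 5-FU, 3 and 4 for Combi and 5 and 2 for SARB, with medians of -0.22, -0.13, 0.15 and -0.27. All genes had medians of -0.47, -0.27, -0.10 and -0.41. The lower calls were 17.4%, 17.4%, 13.0% and 21.7% of the list, beside 21.6%, 10.1%, 6.58% and 20% of all genes. Higher calls were 4.35%, 8.70%, 17.4% and 8.70%, beside 3.42%, 10.1%, 13.6% and 8.63%. PRDM1, a transcriptional repressor with a PR domain, was called higher in 5-FU (2.20, adjusted p = 4.45e-07, edgeR quasi-likelihood), Combi (1.32) and SARB (1.41), from 25.8 scaled counts in control. The acetyltransferase gene KAT2B was called higher in the same 3 treatments (1.37, 1.05 and 0.96). The deacetylase gene HDAC2 was called lower in these 3 (-0.65, -0.72 and -0.77), HDAC4 in TQ (-1.43), 5-FU (-1.09) and SARB (-1.21), and HDAC11 in TQ (-1.59), 5-FU (-0.92) and, at 76.1 against 148.1 scaled counts in control, SARB. WHSC1, an H3 lysine methyltransferase gene, was called lower in Combi (-0.81) and SARB (-0.88). SETD2, which methylates H3 on transcribed genes, was called higher in TQ (0.71), and CREBBP, an acetyltransferase gene with a mean of 43.1 raw counts, was called lower there (-1.54). Named after their values were seen, HDAC1 was called lower in TQ and Combi, EZH2 in 5-FU and SUV39H2 in SARB, and HDAC5 and KMT2C were called higher in Combi. Against control with cartridge as a block, HDAC1 (-0.52), HDAC5 (0.20) and KMT2C (0.27) in Combi and SUV39H2 in SARB (-0.46) were not called. After TMM normalization HDAC1 in TQ (-0.14), EZH2 in 5-FU (-0.48) and SUV39H2 in SARB (-0.29) were not called. HDAC11 (-1.46), HDAC4 (-0.75) and HDAC5 (-0.77) were called lower in SARB than in Combi, and with cartridge as a block none of the 3 was. Against control, that block left HDAC4 and KAT2B called in no treatment and turned HDAC11 to 0.14 in 5-FU and 0.06 in SARB, while PRDM1 stayed called in its 3 treatments. HDAC2 in 5-FU (-0.51), WHSC1 in Combi (-0.67), and SETD2 (0.63) and CREBBP (-1.11) in TQ were also not called with that block. After TMM normalization the lower calls of the list were 2, 2, 3 and 2 and the higher calls 2, 3, 4 and 4. HDAC2 in 5-FU (-0.45) and SARB (-0.42), WHSC1 in SARB (-0.49) and CREBBP in TQ (-1.07) were then not called.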

How the data were processed

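Total RNA (50 ng) of the 15 HCT116 samples was hybridised to the panel, and the authors deposited raw counts per probe, normalized signal values and a table of their own fold changes and p-values, which was not used. The deposited raw counts are whole numbers without normalization and are the basis of all values here. The deposited signal values were scaled by the authors on housekeeping genes in nSolver and were used only as an alternative for the ratios. Raw counts of the 730 endogenous genes were fitted in edgeR 4.0.16 (R 4.3.3) by quasi-likelihood, with the 5 groups in 1 fit and offsets from the geometric mean of the 40 housekeeping genes. Standard errors come from the log2 fold change and its F statistic. Alternatives were TMM, DESeq2 1.42.0, a filter of at least 20 counts in 3 samples, subtraction of the negative probes, the 20 highest housekeeping genes, cartridge or replicate number as a block, and leaving out each sample. The fit was tested on simulated data. The members and lists were chosen with earlier results of these data known. All 6 genes were named, with up to 8 called genes per list by largest change and 3 genes per member by likeness. The ratio without HIST1H3G was chosen after seeing the data. Over the 15 replicate pairs within groups, counts differed by more than sampling noise (highest chi-square p = 2.25e-16). The groups were labelled as biological replicates. One immune marker is not reported here.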

Additional observations from a re-analysis of the deposited data

How the results depend on the processing

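HIST1H3H and HIST1H3B kept their lower call in 5-FU, Combi and SARB under every alternative fit run, each sample left out included. Since both genes were selected on these contrasts, this describes the fits and is no test of the change. H3F3A and H3F3C lost calls with the scaling, and counts near background limit HIST1H3G, SMC1B and CCNB3. The difference from control in the log2 ratio of replication-dependent genes over H3F3A (0.38 in TQ, -1.34 in 5-FU, -1.39 in Combi, -1.63 in SARB) depended on the gene used. With HIST1H3H alone it was -2.72 in 5-FU, -2.82 in Combi and -3.00 in SARB. With HIST1H3B alone it was -0.064 in TQ, -2.12 in 5-FU and -2.17 in SARB. With HIST1H3G alone, near background, it turned to 0.81, 0.29 and 0.28 in 5-FU, Combi and SARB. Without HIST1H3G it was -2.42, -2.24 and -2.58. Over H3F3C it was -0.030 in TQ and -1.78 in 5-FU, and over H2AFX -0.51 in Combi and -1.01 in SARB. After background subtraction it was 1.00 in TQ, -0.84 in 5-FU and -1.13 in SARB, and from the authors' normalized values 0.82 in TQ. With 1 sample left out it lay between -1.89 (without SARB replicate 1) and -1.16 (without SARB replicate 3) in SARB. The cause of these moves was not tested beyond the level of HIST1H3G.

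Of the 6 genes, those called lower in TQ went from 3 to 0 after TMM normalization, 0 by DESeq2 and 1 with the cartridge block, those in Combi from 5 to 3 after TMM, and those lower in SARB than in Combi lay between 0 and 1 with 1 sample left out (1 without SARB replicate 2). In the DNA replication list, lower calls in TQ were 0 after TMM, 0 by DESeq2, 3 after background subtraction, 2 with the 20 highest housekeeping genes and 1 to 2 with 1 sample left out, and higher calls 3 after TMM and 4 by DESeq2. In 5-FU lower calls were 3 after TMM and 2 by DESeq2, and higher calls 1 with the 20 highest housekeeping genes. In SARB lower calls were 3 after TMM and 3 by DESeq2, and higher calls 6 after TMM, 6 by DESeq2, 3 with the cartridge block and 1 to 3 with 1 sample left out. The cause was not tested.

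Over all 730 genes, lower calls after TMM, by DESeq2 and with the cartridge block were 44, 37 and 26 in TQ (from 158), 41, 34 and 39 in 5-FU (from 74), and 68, 60 and 56 in SARB (from 146). Higher calls were 79, 85 and 13 in TQ (from 25), 120, 116 and 50 in SARB (from 63), and 61 in Combi with the cartridge block (from 99). Deviations of same-numbered samples of different groups correlated in both directions (30 pairs, r from -0.45 to 0.44, 10 over 0.1). With 3 samples per group this check cannot decide whether the numbers pair samples. With a replicate block HIST1H3H was at -3.31, -3.47 and -3.60 in 5-FU, Combi and SARB, and lower calls in TQ went from 158 to 137.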
